A study of Mus musculus with 2 samples.

Results

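The iron handling genes described here are 10 genes whose products take up, store, export or scavenge iron or regulate these steps: *Tfrc*, *Slc11a2*, *Slc11a1*, *Slc40a1*, *Fth1*, *Ftl1*, *Hmox1*, *Aco1*, *Ireb2* and *Lcn2*. They were chosen by symbol from a table of 37451 genes, and each symbol had 1 row. The table holds the RNA-Seq levels of bone marrow-derived macrophages (BMDMs), in FPKM (fragments scaled to transcript length and to sequencing depth), from 1 WT library and 1 ΔM library. ΔM macrophages lack tristetraprolin (TTP), the mRNA-destabilizing protein encoded by *Zfp36*. They came from LysMCre mice with floxed *Zfp36* alleles (TTP fl/fl), in which the Cre recombinase is made in myeloid cells. The mice were C57BL/6 littermates 7 to 9 weeks old, and the marrow cells were grown in CSF-1 taken from L929 cell supernatant. Both cultures received 100 µM 4-thiouridine (4sU) for 16 h and LPS, a bacterial cell wall component that activates macrophages, at 10 ng/ml for 6 h. The 6 h come from the treatment protocol, while the sample titles end in LPS7 and the meaning of that 7 is not given in the sources used here. No library without LPS was analysed here, so the levels describe stimulated cells only. With 1 library per genotype there was no replicate error and no test was made. The brackets after a value give a 95% interval that covers counting error only.

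Macrophages recycle the iron of old red blood cells and withhold iron from microbes during inflammation. Iron enters through the transferrin receptor, is released from endosomes or phagosomes by the NRAMP metal transporters, is stored in ferritin and leaves the cell through ferroportin. The proteins encoded by *Aco1* and *Ireb2*, the iron regulatory proteins IRP1 and IRP2, bind a hairpin called the iron-responsive element (IRE) when iron is scarce. An IRE in the 5′ UTR blocks translation, and IREs in the 3′ UTR protect the mRNA from cleavage, so that storage and export are lowered and uptake is raised.

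The hairpins are shown because they are the sequence feature by which these mRNAs are best known. Each is a 27-nt stretch of the mm9 genome read 5′ to 3′ on the strand of the gene, and the capitals mark the loop letters CAGTGN. The motif searched on the strand of the mRNA was a C, 5 bases of any kind and CAGTGN, with all 5 bases before the loop paired to the 5 bases after it. G-T pairs were accepted beside A-T and G-C pairs. The first group lies in the 5′ UTR of the ferritin heavy chain, ferritin light chain and ferroportin genes.
*Fth1*, chr19:10057223-10057249, plus strand: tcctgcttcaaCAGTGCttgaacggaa
*Ftl1*, chr7:52715150-52715176, minus strand: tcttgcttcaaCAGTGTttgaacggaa
*Slc40a1*, chr1:45982311-45982337, minus strand: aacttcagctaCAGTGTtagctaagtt
The second group lies in the 3′ UTR of the transferrin receptor gene *Tfrc*, on the plus strand.
*Tfrc*, chr16:32631306-32631332: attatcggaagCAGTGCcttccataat
*Tfrc*, chr16:32631685-32631711: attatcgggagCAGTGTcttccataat
*Tfrc*, chr16:32631750-32631776: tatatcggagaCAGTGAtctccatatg
*Tfrc*, chr16:32631797-32631823: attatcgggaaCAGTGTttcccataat
The letters without a fully paired stem were found at 6 places in the 3′ UTRs of *Slc11a2* transcripts, with 2 to 4 of the 5 stem bases paired. Those with the fewest and the most paired bases are shown, in different transcripts.
*Slc11a2*, chr15:100219319-100219345, minus strand: cccttcggaggCAGTGGgcctgtggca
*Slc11a2*, chr15:100225585-100225611, minus strand: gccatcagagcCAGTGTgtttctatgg
The letters without a fully paired stem also lay in the 3′ UTRs of *Slc11a1* (1), *Ireb2* (2), *Fth1* (1) and *Tfrc* (1). Falling short of 5 paired bases does not show that a place is not an IRE, in *Slc11a2* or elsewhere.
The letters alone were frequent, in 10.1% of 19854 5′ UTRs and 33.7% of 19915 3′ UTRs, whereas letters with a fully paired stem were found in 0.136% of the former and 0.577% of the latter.

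The levels of the 10 mRNAs spanned a 6561-fold range in WT BMDMs. *Fth1* was the highest, followed by *Ftl1*, *Lcn2*, *Slc11a2*, *Hmox1*, *Slc11a1*, *Tfrc*, *Aco1*, *Ireb2* and *Slc40a1*. *Lcn2* and *Slc11a2* had overlapping counting intervals, and every other pair of neighbors in this order was apart. In ΔM BMDMs *Lcn2* moved from place 3 to place 6, behind *Hmox1*, *Slc11a2* and *Slc11a1*. *Hmox1* also stood above *Slc11a2* there, the reverse of their order in WT, with overlapping intervals in ΔM. The order of the other genes was the same as in WT.

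**Figure D1:**
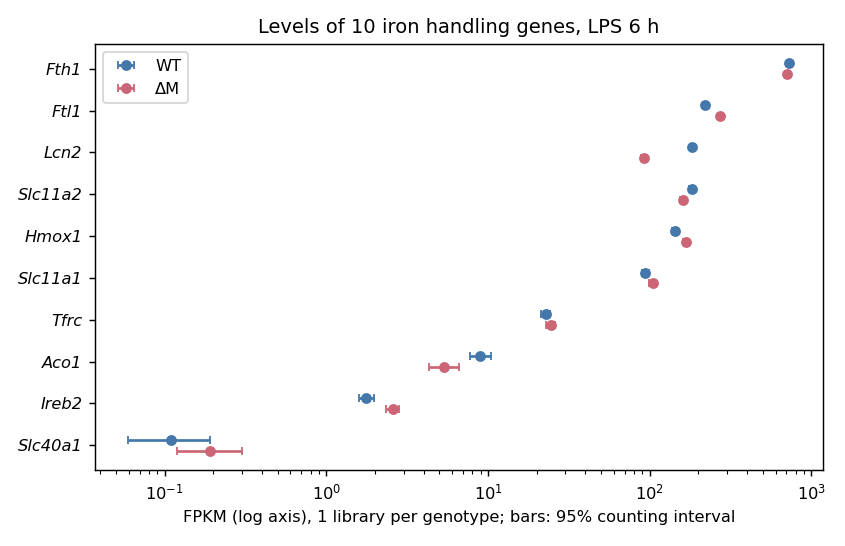
Level of each iron handling mRNA in FPKM on a log axis, in the WT and the ΔM library (1 library each), with bars for the 95% counting interval. *Fth1* stands at 721.7 and 706.1 FPKM and *Slc40a1* at 0.11 and 0.19 FPKM, and *Lcn2* and *Aco1* are the genes whose ΔM point lies well below the WT point.

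The difference between genotypes was taken as the log2 ratio of ΔM to WT after adding 1 FPKM to each value, which understates differences of low genes. A gene was counted as higher or lower in ΔM when both libraries averaged 1 FPKM or more and this ratio passed 1.5-fold. Of the 10 genes, 9 reached the mean of 1 FPKM, 2 of them were lower in ΔM past 1.5-fold (*Lcn2* and *Aco1*) and 0 were higher. Among all 10765 genes with that mean, 7.51% were lower and 11.2% were higher. Among the 8078 protein-coding genes, 5.36% were lower and 4.82% were higher. At 2-fold, 0 of the 9 genes were higher or lower, beside 5.69% of all genes higher and 3.61% lower. The median log2 ratio of the 9 genes was 0.10, with 5 above 0 and 4 below 0. All genes had a median of 0.03 and quartiles of −0.19 and 0.26, and protein-coding genes had a median of −0.0015. Apart from *Lcn2* and *Aco1*, the 7 remaining genes lay between −0.18 and 0.37.

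**Figure D2:**
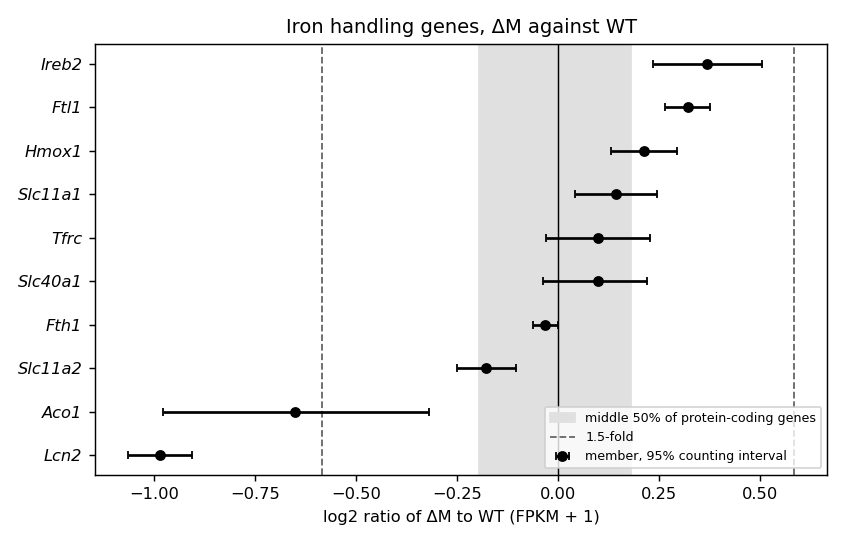
Log2 ratio of ΔM to WT for each iron handling gene after adding 1 FPKM, with bars for the 95% counting interval, dashed lines at 1.5-fold and a gray band for the middle 50% of protein-coding genes (−0.19 to 0.18). *Lcn2* (−0.98) and *Aco1* (−0.65) lie past the lower line, *Ireb2* (0.37) and *Ftl1* (0.32) are the highest, and no gene passes the upper line.

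Ferritin is a shell built of heavy chains, which oxidize iron for storage, and light chains, which help to form the mineral core. *Fth1* (ENSMUSG00000024661, chr19:10057193-10059582, plus strand) had 721.7 FPKM [711.1 to 732.5] in WT and 706.1 FPKM [695.0 to 717.4] in ΔM. The intervals overlapped. These levels placed it 25th and 26th among the protein-coding genes, and its ratio of 0.978 [0.957 to 0.99985] was the closest to 1 of the 10 genes. *Ftl1* (ENSMUSG00000050708, chr7:52713314-52715254, minus strand) had 218.7 FPKM [212.7 to 224.8] in WT and 273.4 FPKM [266.3 to 280.7] in ΔM, a ratio of 1.25 [1.20 to 1.30]. The light chain mRNA was therefore higher in the ΔM library and the heavy chain mRNA nearly equal in both. *Fth1* exceeded *Ftl1* 3.30-fold in WT and 2.58-fold in ΔM. The sum of both chains was 940.4 FPKM in WT and 979.5 FPKM in ΔM, a log2 ratio of 0.06.

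The *Ftl1* values carry 2 limits of mapping. The genome held 8 further stretches of at least 300 nt that were at least 90% identical to the *Ftl1* transcript, up to 99.5%. Only uniquely mapped reads were counted, so reads that fit a copy equally well were lost. The 16 annotated genes that overlap these copies summed to 255.0 FPKM in WT and 376.7 FPKM in ΔM. These sums mix unlike genes and do not measure the level of the copies. The highest entry was the miRNA gene *Mir692-2a*, with 130.86 (WT) and 189.95 (ΔM) FPKM. *AC101886.1* was listed with 0 for WT, and its ΔM value of 39.12 FPKM equals that of *Mir692-1*. Whether *AC101886.1* and *Mir692-1* share reads was not tested. The part of the copies in the *Ftl1* ratio was not tested. *Ftl1* also contains an annotated miRNA gene of 109 nt on the same strand, AC151602.1, with 1370 FPKM in WT and 1750 FPKM in ΔM. Its reads cannot be told apart from those of *Ftl1*. This gene is shorter than the estimated fragment length of 198 nt, so its FPKM cannot be compared with that of *Ftl1*. Its ratio of 1.28 is not independent of the *Ftl1* ratio for the same reason of shared reads. *Fth1* had no such copy of at least 300 nt at this identity. A gene named as a heavy chain pseudogene, *Fth-ps2*, was nevertheless listed with levels of 82.1 (WT) and 82.4 (ΔM) FPKM. Its part in the *Fth1* values was not tested.

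Transferrin-bound iron enters through the transferrin receptor, and the divalent metal transporter encoded by *Slc11a2* then carries it out of the endosome. *Tfrc* (ENSMUSG00000022797, chr16:32609006-32632880, plus strand) had 22.7 FPKM [21.3 to 24.2] in WT and 24.4 FPKM [22.8 to 26.1] in ΔM, and the intervals overlapped. The ratio of *Tfrc* was 1.08 [0.980 to 1.18]. *Tfrc* is also the member with the most TTP-type letters in its 3′ UTR, with 5 copies of ATTTA and 2 copies of TATTTAT in 2458 nt. A link between these letters and the ratio was not tested. *Slc11a2* (ENSMUSG00000023030, chr15:100218329-100255503, minus strand) had 181.4 FPKM [175.3 to 187.6] in WT and 160.3 FPKM [154.3 to 166.5] in ΔM, a ratio of 0.884 [0.840 to 0.930]. The endosomal transporter was thus 7.99 times as high as the receptor in WT and 6.57 times in ΔM. The 9 annotated transcripts of *Slc11a2* range from 387 to 4415 nt, so its FPKM depends on which are used, and ratios between genes share that limit. A gene on the opposite strand, Gm5475, overlaps *Slc11a2* but was listed at 0.21 and 0.34 FPKM.

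*Slc11a1* encodes NRAMP1, which pumps metal ions out of the phagosome of macrophages, and C57BL/6 mice are known to carry an allele of it whose protein does not function. The mRNA was present in both libraries. *Slc11a1* (ENSMUSG00000026177, chr1:74421777-74432636, plus strand) had 94.1 FPKM [89.5 to 98.8] in WT and 104.0 FPKM [98.9 to 109.3] in ΔM. Its ratio of 1.11 [1.03 to 1.19] was above 1, and that of its paralog *Slc11a2* was below 1. *Slc11a2* exceeded *Slc11a1* 1.93-fold in WT and 1.54-fold in ΔM. The genome held 1 further stretch, of 1156 nt, that was 92.8% identical to the *Slc11a1* transcript. Its part in the *Slc11a1* values was not tested.

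*Slc40a1* encodes ferroportin, the known iron exporter of mammalian cells. It was the only member that did not reach a mean of 1 FPKM. *Slc40a1* (ENSMUSG00000025993, chr1:45964915-45982439, minus strand) had 0.11 FPKM [0.059 to 0.191] in WT and 0.19 FPKM [0.118 to 0.300] in ΔM, which correspond to about 13 and 20 fragments. The ratio of 1.73 [0.823 to 3.80] covered 1, and a difference of this size was not detectable at this depth.

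*Hmox1* encodes heme oxygenase 1, the stress-inducible enzyme that opens heme and frees its iron. *Hmox1* (ENSMUSG00000005413, chr8:77617490-77624495, plus strand) had 143.7 FPKM [138.0 to 149.7] in WT and 166.7 FPKM [160.1 to 173.5] in ΔM. The intervals were apart, with a ratio of 1.16 [1.10 to 1.23] that stayed short of 1.5-fold. The constitutive enzyme *Hmox2* was lower than *Hmox1*, which exceeded it 1.33-fold in WT and 1.47-fold in ΔM. Promoter windows from RefSeq (GRCm38.p6, 250 bases before to 50 after the start) were held for 7 members and not for *Hmox1*, *Slc11a2* and *Slc40a1*. None of their 9 windows held TGACNNNGC on either strand, the core letters of the antioxidant response element, beside 12.4% of 32851 windows. With only 9 windows this is not set apart from that share, and letters outside the windows were not searched.

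TTP binds AU-rich letters around UAUUUAU. The TTP binding sites that the study listed in *Hmox1* and *Fth1* are therefore shown with the listed site in capitals, on the plus strand of mm9.
*Hmox1* intron, chr8:77618470-77618483: acccaaTCATACTTTTTTTAaaaaaa
*Hmox1* intron, chr8:77618490-77618496: tttaaaaaaaAGTTTTTttttaaaata
*Hmox1* intron, chr8:77618504-77618510: tttttttaaaATATTTAtgtatttatt
*Hmox1* 3′ UTR, chr8:77624396-77624401: gtggggctatCTTTTGaggggtgggt
*Hmox1* 3′ UTR, chr8:77624414-77624415: aggggtgggtggGAaagaattattta
*Hmox1* 3′ UTR, chr8:77624421-77624430: ggaaagaaTTATTTAATAgttgtaac
*Fth1* coding sequence, chr19:10058676-10058682: ttcagtcttgTTATTTTgaccgagatg
*Fth1* 3′ UTR, chr19:10059504-10059512: gccttcatcTTTTCTATAagttgcacc
Of these 8 sites, 2 hold the letters ATTTA, 1 in the intron and 1 in the 3′ UTR of *Hmox1*. The latter is the single copy in that 3′ UTR of 577 nt, and the 3′ UTR of *Fth1* holds 0 copies. The ratios of these genes were 1.16 for *Hmox1* and 0.978 for *Fth1*. Over all genes, 61.3% of 3′ UTRs held ATTTA and 23.9% held TATTTAT. Among the members, ATTTA was found in *Tfrc*, *Ireb2* (4 copies in 2793 nt), *Slc11a2* (3 in 2650 nt), *Slc40a1* (2 in 1336 nt) and *Hmox1*. *Lcn2* and *Aco1*, the genes that were lower past 1.5-fold, had 0 copies of ATTTA in 3′ UTRs of 232 and 1342 nt. *Slc11a1* and *Ftl1* also had 0 copies, and a missing match says only that these letters are not in this window. Whether the letters or the listed sites go with the ratios was not tested.

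The mRNAs of the iron regulatory proteins differed in opposite directions. *Aco1* encodes a cytosolic aconitase that becomes IRP1 when it loses its iron-sulfur cluster. *Aco1* (ENSMUSG00000028405, chr4:40090114-40146042, plus strand) had 8.97 FPKM [7.68 to 10.4] in WT and 5.35 FPKM [4.32 to 6.60] in ΔM, a ratio of 0.596 [0.458 to 0.777] and a log2 ratio of −0.65. Its WT level was 1.68 times [1.29 to 2.18] the ΔM level, and 4.06% of protein-coding genes had a log2 ratio as low or lower. About 170 and 90 fragments lay behind the *Aco1* values by the median annotated transcript, and 1363 and 720 by the longest, which narrows the interval of the ratio to 0.544 to 0.654.

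*Ireb2* encodes IRP2, which is degraded when iron is plentiful. *Ireb2* (ENSMUSG00000032293, chr9:54711562-54760341, plus strand) had 1.77 FPKM [1.59 to 1.96] in WT and 2.58 FPKM [2.35 to 2.82] in ΔM, a ratio of 1.46 [1.27 to 1.68]. Its log2 ratio of 0.37 was short of 1.5-fold, and 11.5% of protein-coding genes had a log2 ratio as high or higher. *Aco1* exceeded *Ireb2* 5.07-fold in WT and 2.07-fold in ΔM. Their sum was 10.7 FPKM in WT and 7.93 FPKM in ΔM, a log2 ratio of −0.39.

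*Lcn2* encodes lipocalin 2, a secreted protein that binds bacterial siderophores and so keeps iron from microbes, and whose gene is strongly induced by LPS. It showed the widest difference of the 10 genes. *Lcn2* (ENSMUSG00000026822, chr2:32240153-32243317, minus strand) had 182.8 FPKM [177.3 to 188.4] in WT and 91.9 FPKM [87.7 to 96.1] in ΔM, a ratio of 0.503 [0.476 to 0.531] and a log2 ratio of −0.98. The WT level was 1.99 times [1.88 to 2.10] the ΔM level. It was the 188th highest protein-coding gene in WT and the 426th in ΔM. Of the 3039 protein-coding genes that averaged 10 FPKM or more, 0.888% had a log2 ratio as low as that of *Lcn2* or lower.

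Neutrophils and their precursors also make lipocalin 2, so their markers were read beside it. Of 8 neutrophil markers, 1 reached 1 FPKM, *S100a8*, whose level was 50.7 FPKM in the WT and 100.0 FPKM in the ΔM library. The other defining markers were near or at 0, with *S100a9*, *Ly6g*, *Elane* and *Ngp* listed at 0 in both libraries. The summed level of the list, nearly all of it *S100a8*, was 50.8 FPKM in WT and 100.5 FPKM in ΔM. All 8 macrophage markers reached 1 FPKM, with a sum of 4004 FPKM in WT and 2872 FPKM in ΔM. That difference came from the lysozyme gene *Lyz2*, at 2481 and 1356 FPKM, since the 7 other macrophage markers summed to 1523 and 1516 FPKM. *Lyz2* is the gene whose locus carries the LysMCre insertion. The part of these markers in the *Lcn2* value was not tested, and in bulk RNA fewer cells of a type and less RNA per cell cannot be told apart.

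**Figure D3:**
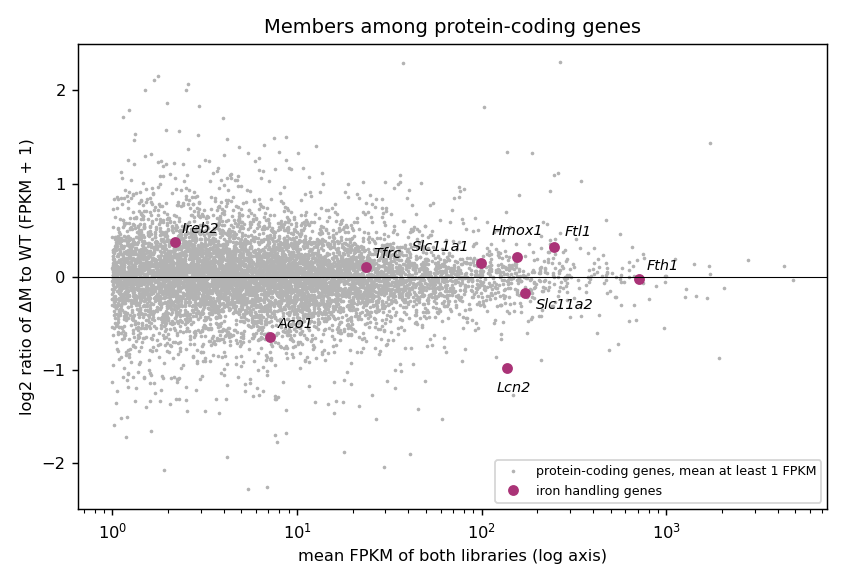
Log2 ratio of ΔM to WT against the mean level in FPKM (log axis) for protein-coding genes averaging 1 FPKM or more, shown as gray points, with the 9 iron handling genes of that level marked and 12 protein-coding genes beyond the vertical range. *Lcn2* lies at the lower edge of the points at its level, while *Fth1* and the transporters lie near 0.

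The labels were checked on *Zfp36*, which had 65.3 FPKM [63.2 to 67.4] in the WT library and 16.7 FPKM [15.6 to 17.9] in the ΔM library. The steps between low FPKM values placed the depth at about 36600000 fragments in WT and 32400000 fragments in ΔM. None of 8 erythroid markers reached 1 FPKM, with sums of 0.46 and 0.27 FPKM, so the heme genes below were read without a red cell signal. The marker lists of T cells, B cells, fibroblasts and dendritic cells each summed to less than 1 FPKM in both libraries.

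A wider list of 70 iron and heme genes was read in the same way, of which 67 had a single row and 47 averaged 1 FPKM or more. Of these 47 genes, 4 (8.51%) were higher and 3 (6.38%) were lower in ΔM past 1.5-fold, beside 11.2% and 7.51% of all genes and 4.82% and 5.36% of protein-coding genes. The median log2 ratio of the 47 genes was 0.16, beside 0.03 for all genes and −0.0015 for protein-coding genes. Of the 47 genes, 29 were above 0 and 18 below 0, and the share of all genes above 0 was not counted. Most roles had medians between 0.15 and 0.19, whereas the 15 genes of mitochondrial iron and iron-sulfur cluster handling had a median of −0.19.

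Bola3, a factor that helps to deliver iron-sulfur clusters to mitochondrial enzymes, was the lowest of the wider list, with 16.4 FPKM [14.3 to 18.7] in WT and 6.69 FPKM [5.25 to 8.32] in ΔM, a log2 ratio of −1.18. Hscb, a co-chaperone of cluster transfer, had 2.64 FPKM [1.71 to 3.97] in WT and 1.38 FPKM [0.689 to 2.47] in ΔM. Hamp, which encodes the hormone hepcidin, had 1.83 FPKM [0.970 to 3.11] and 0.80 FPKM [0.257 to 1.85]. The values of *Hscb* and *Hamp* rest on 24 fragments or fewer per library and their intervals overlapped. The intervals of *Bola3* were apart. Abcb8, a mitochondrial transporter, and Slc39a14, which imports zinc and iron not bound to transferrin, had log2 ratios of −0.58 and −0.55, short of 1.5-fold. *Slc39a14* had 93.9 FPKM in the WT and 63.6 FPKM in the ΔM library.

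The genes that were higher in ΔM past 1.5-fold belonged to different roles. Mcoln1, a lysosomal cation channel that releases iron, had 17.7 FPKM [15.7 to 20.0] in WT and 28.8 FPKM [26.0 to 31.8] in ΔM. Urod, an enzyme of heme synthesis, had 61.6 FPKM [57.2 to 66.2] and 95.04 FPKM [89.3 to 101]. The hemochromatosis gene *Hfe* had 2.19 FPKM [1.76 to 2.71] and 4.01 FPKM [3.37 to 4.72], and the scaffold protein gene *Iscu* had 3.07 FPKM [2.38 to 3.93] and 5.15 FPKM [4.17 to 6.28]. Each of the 4 genes had intervals that were apart, with log2 ratios from 0.60 for *Iscu* to 0.67 for *Mcoln1*. The cysteine desulfurase gene *Nfs1* followed at 0.55, short of 1.5-fold, and within cluster assembly *Nfs1* and *Iscu* were above 0 and *Bola3* and *Hscb* below.

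**Figure D4:**
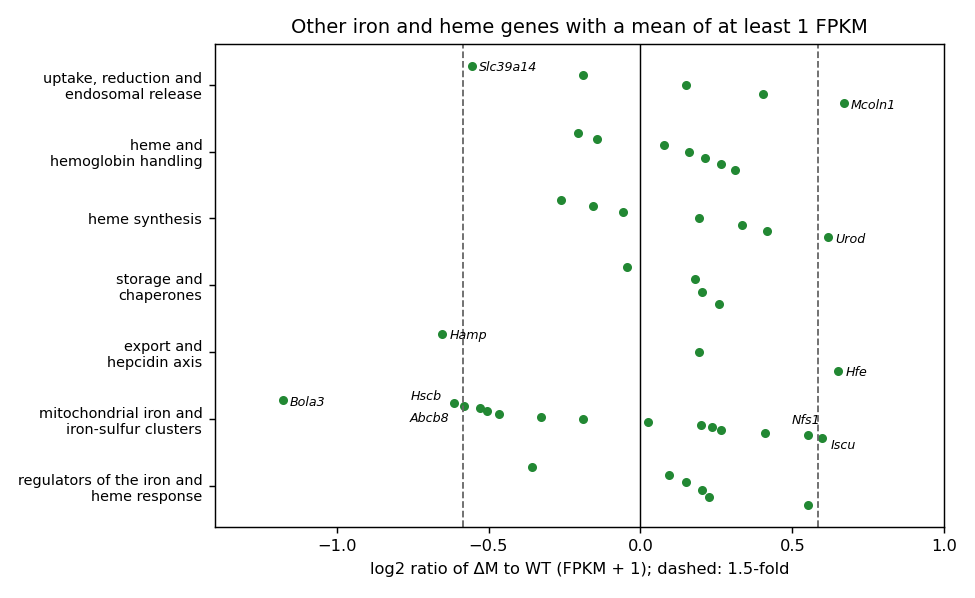
Log2 ratio of ΔM to WT for the 47 wider iron and heme genes averaging 1 FPKM or more, 1 point per gene, grouped by role and offset vertically within it, with dashed lines at 1.5-fold and names for the highest and lowest ratios. The mitochondrial group spreads furthest, from −1.18 for *Bola3* to 0.60 for *Iscu*, and has the lowest median (−0.19).

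Of the 5 genes of the wider list with the highest WT levels, *Slc39a14*, given above, had the widest difference, and none passed 1.5-fold. The biliverdin reductase gene *Blvrb*, which acts after heme oxygenase, had 147.5 FPKM in WT and 171.2 FPKM in ΔM, a log2 ratio of 0.21 that equals the 0.21 of *Hmox1*. *Hmox2* had 107.7 and 113.7 FPKM, and *Cp*, the ferroxidase that works with ferroportin, had 70.9 and 81.1 FPKM. *Alas1*, the first enzyme of heme synthesis outside the red cell lineage, had 85.7 FPKM in WT and 71.2 FPKM in ΔM, a log2 ratio of −0.26. Its red cell counterpart *Alas2*, another mRNA with a 5′ UTR IRE, was listed at 0.30 and 0.02 FPKM, about 11 fragments and 1 fragment. The regulators were also short of 1.5-fold. Fbxl5, which marks the *Ireb2* protein for degradation, had 46.9 FPKM in WT and 50.03 FPKM in ΔM. Bach1, a repressor of *Hmox1*, had 10.3 and 11.5 FPKM, and Nfe2l2, which encodes the activator NRF2, had 31.5 and 24.3 FPKM, with log2 ratios of 0.15 and −0.36.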

How the data were processed

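RNA-Seq of 1 WT and 1 ΔM BMDM library was used. RNA was depleted of rRNA, fragmented and sequenced as 100-bp paired ends. According to the methods, the authors trimmed reads with Cutadapt, mapped them to mm9 with Segemehl, kept unique hits and computed FPKM per Ensembl gene with Cufflinks. The deposited values are FPKM with 2 decimals, not counts, and 1 library per genotype allows no test across samples. The members and gene lists were chosen with earlier results of these data known.

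Ratios were log2((ΔM + 1)/(WT + 1)), with a mean of at least 1 FPKM in both libraries together and a threshold of 1.5-fold. Alternatives were a pseudocount of 0.1 or 5 FPKM, no filter, a mean of 10 FPKM, a 2-fold threshold, median centring, protein-coding genes only and the longest transcript. Depth was estimated from the steps of low FPKM values of transcripts of 300 to 700 nt, of which 95.3% in WT and 94.6% in ΔM were whole fragments within 0.2 (40% by chance), at a fragment length of 198 nt. Fragments per gene used the median annotated transcript length, and 95% intervals were exact Poisson or Clopper-Pearson. They cover counting error only, and the paper names no molecular identifiers for these reads. The depth search was tested on simulated data.

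Coordinates are 1-based, from the GENCODE M1 annotation of the same build (37039 of the 37451 IDs matched). The stem-pairing rule for IREs was added after the letters were matched. Named genes were the 10 members, *Zfp36*, and from the wider list the 5 highest and 5 lowest ratios and the 5 highest WT levels at a mean of at least 1 FPKM, with *Alas2*, *Fbxl5*, *Bach1* and *Nfe2l2*. A further gene of the rule is not reported here. Flvcr1, Flvcr2 and Mafg were not analysed here. Python 3.11.15 with numpy 2.4.6, pandas 2.3.3, scipy 1.17.1 and matplotlib 3.10.9 was used, and genome copies were searched with BLAST.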

Additional observations from a re-analysis of the deposited data

How the results depend on the processing

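No member changed the sign of its log2 ratio under any alternative, and the median of the members stayed between 0.09 and 0.10. Of 30 alternative member ratios, 27 stayed within the counting interval, and the others were *Slc40a1* (0.47 with a pseudocount of 0.1 FPKM) and *Ireb2* (0.52 with 0.1 FPKM and 0.16 with 5 FPKM). *Lcn2* ranged from −0.99 to −0.96 and *Aco1* from −0.73 to −0.43 over these pseudocounts. The count of members lower past the threshold was 1 in place of 2 with a pseudocount of 5 FPKM, 1 with a mean of at least 10 FPKM and 0 at 2-fold. The wider list gave 7 higher and 6 lower with a pseudocount of 0.1 FPKM (all genes 14.2% and 9.94%), 1 and 1 with 5 FPKM (7.61% and 4.00%), 2 and 1 with a mean of at least 10 FPKM (13.9% and 6.31%), and 0 and 1 at 2-fold (5.69% and 3.61%). Without a filter, 3.71% of all genes were higher and 2.62% lower, and among protein-coding genes only 4.82% were higher. A higher pseudocount lowers each ratio by construction, most for low genes, and a stricter mean tests fewer genes. The estimated fragments of 14 of 20 values depended on the transcript taken, so the counting intervals are approximate. No paired analysis was possible because each genotype has 1 library, and no library could be left out for the same reason.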
